A study of Homo sapiens with 2 samples.

Results

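Complex I, NADH:ubiquinone oxidoreductase, is the largest enzyme of the mitochondrial respiratory chain, and most of its subunits are encoded in the nucleus under symbols that begin with NDUF. The members described here were all genes with such a symbol, 48 of 16222 distinct symbols listed, after 5 rows of numbered pseudogenes and 2 second rows of a symbol had been left out of 55 NDUF rows. They comprised all 37 nuclear-encoded subunits, 7 of 8 NDUFAF assembly factors, NDUFA4 and NDUFA4L2, which lie outside complex I, 1 antisense RNA and 1 read-through transcript. The 46 protein genes, without the antisense RNA and the read-through transcript, are called the NDUF genes below, and 45 of them had a mean of at least 1 CPM (counts per 1000000 CAGE tags) over both libraries.

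Cap analysis of gene expression (CAGE), which sequences the 5′ ends of capped RNA and so counts transcripts without a length factor, was applied to PLC/PRF/5, an established human hepatoma line that carries hepatitis B virus DNA. The non-treated group was 1 library with 0 µg/ml of M2BPGi, and the treated group was 1 library of cells given 3 µg/ml of M2BPGi for 6 h. M2BPGi, the Wisteria floribunda agglutinin-positive glycan isomer of Mac-2-binding protein, is a serum glycoprotein measured as a marker of liver fibrosis, and the comparison asks how transcript levels in hepatoma cells differ after exposure to it. The libraries held about 24040000 and 24863000 tags, as read back from the CPM. With 1 library per condition no difference between conditions could be tested and no replicate check exists. The 95% Clopper-Pearson intervals given in brackets cover counting error only.

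The markers fitted a hepatoma line in part. AFP stood at 695 CPM in the non-treated and 566 CPM in the treated library, SERPINA1 at 671 and 455 CPM, and the epithelial keratin KRT18 at 1250 and 1592 CPM. Albumin (ALB) was low, at 8.82 and 7.04 CPM, and the transport protein TTR stood at 3.62 and 2.49 CPM. All 10 hepatocyte or hepatoma markers were listed, with summed levels of 3811 and 3795 CPM, of which KRT18 was the most abundant. Their median log2 ratio, treated over non-treated, was -0.15, beside -0.05 for all genes with a mean of at least 1 CPM. At least 1.2-fold lower were 4 (beside 24.2% of all genes), and 1, KRT18, was at least 1.2-fold higher (beside 13.0%). The counting interval of these markers lay below 0 for 6 (beside 31.5% of all genes) and above 0 for 3 (beside 22.8%). Any part of these markers in the NDUF difference was not tested. Of 5 leukocyte markers 3 were listed, PTPRC and CSF1R with 0 tags in both libraries, which allows up to 0.125 and 0.121 CPM, and LYZ at 32.1 and 29.2 CPM. Of 5 stellate cell or fibroblast markers 2 were listed, COL3A1 at 4.53 and 3.42 CPM and COL1A1 at 0.67 and 0.76 CPM, and none of 4 endothelial markers was listed.

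Complex I takes electrons from NADH and passes them through flavin and a chain of iron-sulphur clusters to ubiquinone, and the energy released drives protons across the inner mitochondrial membrane. It is L-shaped: the peripheral arm in the matrix holds the cofactors, and the membrane arm holds the proton channels, whose core subunits are encoded by mitochondrial DNA. The nuclear genes supply the core subunits of the peripheral arm, the accessory subunits that surround both arms, and the assembly factors, and hepatocytes are rich in mitochondria that depend on them.

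Most NDUF genes had slightly higher levels in the M2BPGi-treated library. Of the 45 NDUF genes with a mean of at least 1 CPM, 41 had a log2 ratio above 0 and 4 below, beside 42.9% of all 13724 genes above 0. The ratio, treated over non-treated, was taken after adding 1 CPM to each value. The median over the 45 genes was 0.20 (quartiles 0.09 and 0.31, range -0.14 to 0.71), and over all genes it was -0.05. At least 1.2-fold higher were 16 NDUF genes, or 35.6%, beside 13.0% of all genes, and 0 were at least 1.2-fold lower, beside 24.2% of all genes. The counting interval lay above 0 for 33 NDUF genes (22.8% of all genes) and below 0 for 2, NDUFS1 and NDUFB1 (31.5% of all genes). These shares are not of like depth, since the interval narrows with more tags. The median level in the non-treated library was 204 CPM for the NDUF genes and 21.3 CPM for all genes. Interval counts among genes of nearer level are given below. Rescaling the libraries to a median ratio of 0 left 17.4% of all genes at least 1.2-fold higher and 19.2% lower, so that the share of higher genes among these went from 35.0% to 47.6%, while the NDUF genes counted 22 higher and 0 lower. Summed over the 45 genes, the level was 10240 CPM in the non-treated and 11778 CPM in the treated library, a log2 ratio of 0.20 (0.19 to 0.21). These are shares of each library's tags from bulk cells, so more transcript per cell, more cells that express a gene, and less of other RNA cannot be told apart. In the plot of levels, the treated point lies to the right of the non-treated point for most genes, by a distance that is small beside the differences among genes.

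**Figure D1:**
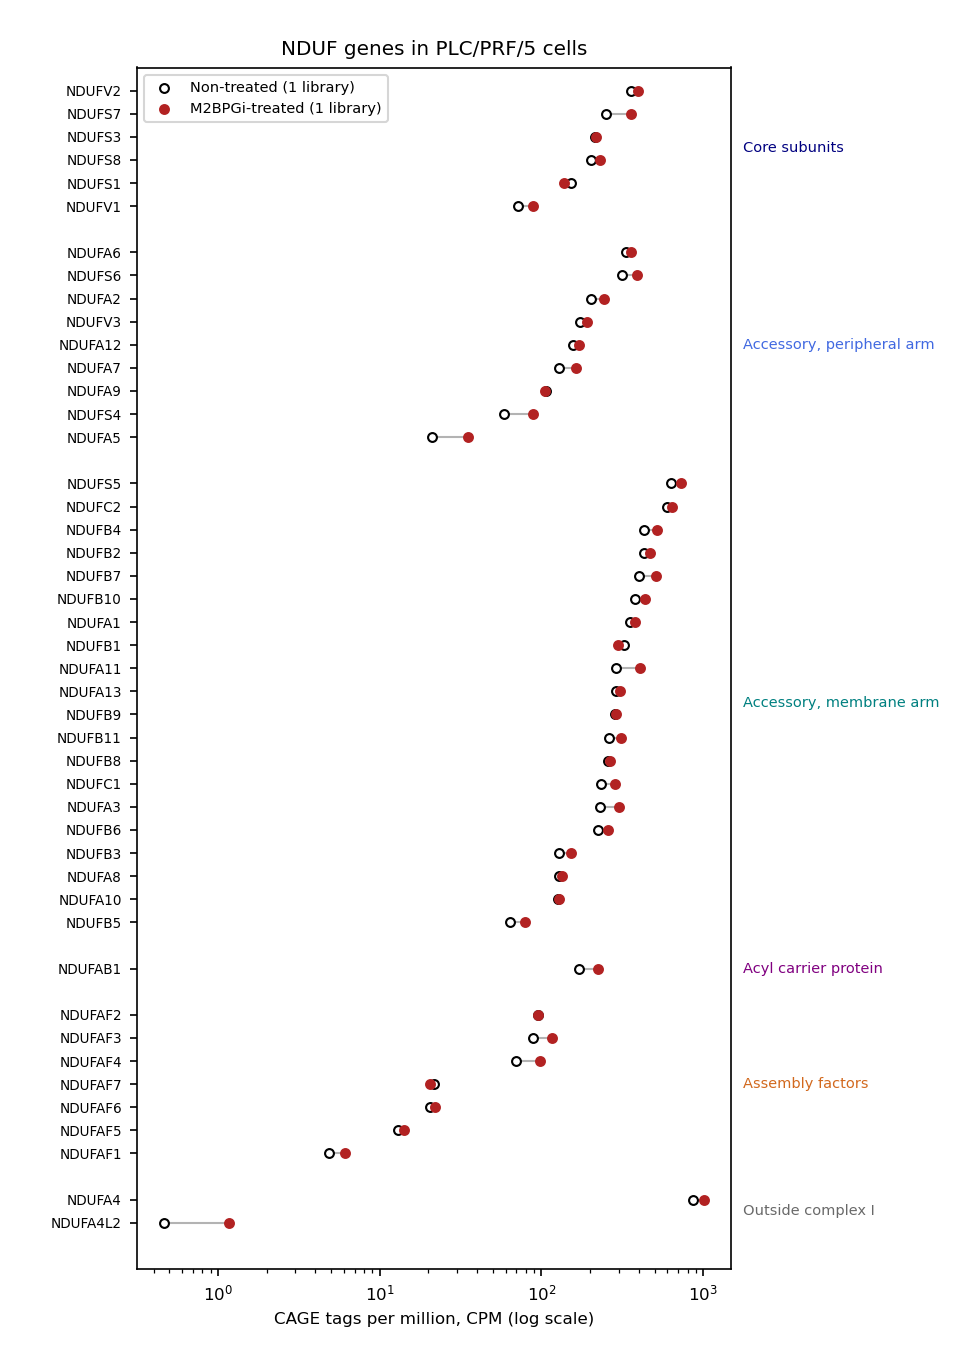
Level of 45 of the 46 NDUF genes in CPM (CAGE tag counts, log scale) in the non-treated library (open circles) and the M2BPGi-treated library (filled circles), grouped by role. The subunits kept nearly the same order in both libraries, and NDUFA4 and NDUFA4L2 mark the highest and lowest levels.

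Levels spanned a wide range among the subunits of this enzyme. Since each transcript gives 1 capped end, the CPM can be compared between genes without a length factor, apart from genes that may share tags with a near-identical copy. The highest subunit, NDUFS5, a small protein on the intermembrane-space face of the membrane arm, stood at 632 CPM in the non-treated and 734 CPM in the treated library. The lowest, NDUFA5, a peripheral-arm subunit, stood at 21.1 and 35.0 CPM, so that the highest and lowest subunits were 30.0-fold apart in the non-treated and 21.0-fold apart in the treated library. With the tags of listed near-identical copies added to each gene, a choice made after seeing the data, NDUFA5 was still the lowest and these ranges were 15.6-fold and 11.3-fold. In the non-treated library 30 of the 37 subunits lay between 100 and 500 CPM. Across these 37 genes, which are not independent replicates, the rank correlation of the levels in the non-treated and treated libraries was 0.98, and that of the mean level with the log2 ratio was -0.07.

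Promoter sequences are shown because most members differed in the same direction and because nuclear respiratory genes are known targets of a few shared transcription factors. RefSeq promoters on GRCh38.p14, from 250 bases before to 50 bases after the first listed start, were held for 38 of the 46 NDUF genes. Of these starts 31 were taken as matching a GENCODE transcript of the gene. In these, a short stretch just after the start occurred in the early part of such a transcript, on the same strand. The distance between the RefSeq and GENCODE starts was not measured. The 4 stretches printed here lie before the start, outside every exon of GENCODE release 29. NDUFS4 and NDUFB7 were the subunits with the highest ratios among those with such a stretch, NDUFB7 and NDUFB4 hold motifs, and NDUFA10 differed little between the libraries. Capitals mark the motifs searched, which are NRF1, GABPA, YY1, SP1, ESRRA, CREB and TATA.
NDUFS4, chr5:53560439-53560632, plus strand, no motif in this stretch: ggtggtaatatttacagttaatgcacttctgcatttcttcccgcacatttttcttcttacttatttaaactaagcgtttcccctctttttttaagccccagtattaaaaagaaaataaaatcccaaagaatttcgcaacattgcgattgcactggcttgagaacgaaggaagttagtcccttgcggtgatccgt
NDUFB7, chr19:14572067-14572266, minus strand, SP1 and GABPA motifs: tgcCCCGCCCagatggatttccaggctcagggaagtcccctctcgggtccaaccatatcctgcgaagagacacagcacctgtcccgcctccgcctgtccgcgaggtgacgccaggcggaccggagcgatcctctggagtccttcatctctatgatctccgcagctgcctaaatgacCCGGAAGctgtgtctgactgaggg
NDUFB4, chr3:120596136-120596308, plus strand, NRF1 and ESRRA motifs: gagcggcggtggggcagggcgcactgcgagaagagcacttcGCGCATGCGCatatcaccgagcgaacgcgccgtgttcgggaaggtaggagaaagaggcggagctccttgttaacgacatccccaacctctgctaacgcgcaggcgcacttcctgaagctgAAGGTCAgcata
NDUFA10, chr2:240025403-240025542, minus strand, SP1 motif: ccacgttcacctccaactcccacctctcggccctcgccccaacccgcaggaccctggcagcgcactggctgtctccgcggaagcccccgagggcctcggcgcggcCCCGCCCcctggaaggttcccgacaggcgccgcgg

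Short core motifs were searched on both strands of the 300 bases. The NRF1 motif GCATGCGC, of nuclear respiratory factor 1, was in 7 of 38 NDUF promoters (18.4%), beside 3.27% of all 27305 promoters and 6.63% of the 6696 promoters of genes with a mean of at least 10 CPM. The YY1 motif AAGATGGC was in 6 NDUF promoters (15.8%), beside 3.03% and 6.80%, and in all 6 it lay on the gene's own strand and began 11 to 26 bases after the start, outside the stretches printed. The ESRRA motif AAGGTCA was in 4 (10.5%), beside 3.97% and 2.33%. The SP1 motif GGGCGGG was in 10 (26.3%), beside 32.9% and 56.1%, and the GABPA motif CCGGAAG was in 6 (15.8%), beside 10.7% and 22.4%. The CREB motif TGACGTCA was in 2 (5.26%), beside 1.98% and 3.79%, and TATAAA was in 3 (7.89%), beside 12.0% and 4.88%. In NDUFB4 the NRF1 motif and its reverse complement overlap, and no other marked motifs overlap in the printed stretches. The 7 genes with the NRF1 motif had a median log2 ratio of 0.25 (range 0.07 to 0.52), beside 0.20 for the 31 without it. The 6 genes with the YY1 motif had a median of 0.37 (range -0.01 to 0.60), beside 0.18 for the 32 without it. The 4 genes with the ESRRA motif had a median of 0.42 (range 0.25 to 0.71), beside 0.15 for the 34 without it. The 6 genes with the GABPA motif had a median of 0.09 (range -0.14 to 0.49), beside 0.23 for the 32 without it. For the SP1 motif the medians were 0.19 for 10 genes with and 0.21 for 28 without it, for CREB 0.08 for 2 with and 0.23 for 36 without it, and for TATAAA 0.27 for 3 with and 0.20 for 35 without it. The start did not match a GENCODE transcript for NDUFA8 and NDUFAF4 among the genes with the NRF1 motif, for NDUFA1 and NDUFAF4 among those with the GABPA motif, and for NDUFA5 among those with the ESRRA motif. These differences were not tested, and a match describes letters only.

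The 7 core subunits carry the cofactors and the ubiquinone site. Their median log2 ratio was 0.17, with 6 above 0 (85.7%, beside 42.9% of all genes) and 2 at least 1.2-fold higher (28.6%, beside 13.0%). NDUFS7, which holds the last iron-sulphur cluster before ubiquinone, stood at 249 CPM in the non-treated and 359 CPM in the treated library, a log2 ratio of 0.52 (0.48 to 0.57). NDUFV1, the subunit that binds NADH and flavin mononucleotide, stood at 71.6 and 89.01 CPM, a log2 ratio of 0.31 (0.22 to 0.41). NDUFS7 and NDUFV1 were the core genes past 1.2-fold. NDUFS8, another iron-sulphur protein of the core, stood at 204 and 229 CPM, a log2 ratio of 0.17 (0.12 to 0.23). NDUFV2, the partner of NDUFV1 in the NADH-oxidising module, stood at 357 and 394 CPM, a log2 ratio of 0.14 (0.10 to 0.18). Both lay above 0 by more than counting error but under 1.2-fold. NDUFS3, a core subunit without a cofactor, stood at 213 and 218 CPM, a log2 ratio of 0.03 whose interval (-0.03 to 0.08) includes 0. NDUFS1, the largest core subunit, with several iron-sulphur clusters, stood at 153 and 139 CPM, a log2 ratio of -0.14 (-0.21 to -0.07). NDUFS1 was thus lower in the treated library while its neighbours in the same module, NDUFV1 and NDUFV2, were higher.

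Of the 9 accessory subunits of the peripheral arm, 8 had a ratio above 0 (88.9%, beside 42.9% of all genes) and 5 were at least 1.2-fold higher (55.6%, beside 13.0%), with a median of 0.27, or 0.20 without NDUFA5, which has a near-identical copy. NDUFA5 stood at 21.1 CPM in the non-treated and 35.0 CPM in the treated library, a log2 ratio of 0.71 (0.57 to 0.89). NDUFS4, a subunit that joins late in assembly and whose loss causes Leigh syndrome, stood at 58.4 and 88.8 CPM, a log2 ratio of 0.60 (0.51 to 0.70). These 2 were the NDUF genes past 1.5-fold, a size reached upwards by 1.60% of all genes. NDUFA7 stood at 129 and 164 CPM, a log2 ratio of 0.35 (0.28 to 0.42), and the file lists a second identifier of this gene with identical values. At the other end, NDUFA12, which takes the place of the assembly factor NDUFAF2 when the NADH module is added, stood at 157 and 170.2 CPM, a log2 ratio of 0.11 (0.05 to 0.18). NDUFA6, which anchors the acyl carrier protein, stood at 334 and 359 CPM, a log2 ratio of 0.10 (0.06 to 0.15). Both lay above 0 by more than counting error. NDUFA9, which lies near the ubiquinone pocket and binds a nucleotide, stood at 106 and 105 CPM, a log2 ratio of -0.01 (-0.09 to 0.07) that turned positive when the libraries were rescaled.

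The 20 accessory subunits of the membrane arm had a median log2 ratio of 0.21, with 19 above 0 (95%, beside 42.9% of all genes) and 5 at least 1.2-fold higher (25%, beside 13.0%). NDUFA11, which helps to hold the membrane arm together and touches complex III in supercomplexes, stood at 290.2 CPM in the non-treated and 405 CPM in the treated library, a log2 ratio of 0.48 (0.44 to 0.53). NDUFA3, a small subunit near the joint of the arms, stood at 230.4 and 303 CPM, a log2 ratio of 0.39 (0.35 to 0.45). NDUFB7, a protein of the intermembrane-space face, stood at 403 and 512 CPM, a log2 ratio of 0.34 (0.31 to 0.38). These had the highest ratios of the membrane arm. The lowest ratio belonged to NDUFB1, a small membrane-arm subunit, at 324 and 296 CPM, a log2 ratio of -0.13 (-0.18 to -0.08). NDUFB9, which like NDUFA6 binds an acyl carrier protein, stood at 286 and 291 CPM, a log2 ratio of 0.02 (-0.03 to 0.07). NDUFA10, which resembles nucleoside kinases, stood at 126 and 129 CPM, a log2 ratio of 0.03 (-0.05 to 0.10). For NDUFB9 and NDUFA10 a difference was not detectable at this depth. NDUFB11 at 0.26 and NDUFB4 at 0.25 lay just under the 1.2-fold limit of 0.263, and NDUFA2 of the peripheral arm at 0.27 just above it, so the count of genes past that limit depends on small differences. NDUFAB1, the mitochondrial acyl carrier protein, which serves fatty acid synthesis and is built into both arms, stood at 169 and 223 CPM, a log2 ratio of 0.40 (0.34 to 0.46).

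**Figure D2:**
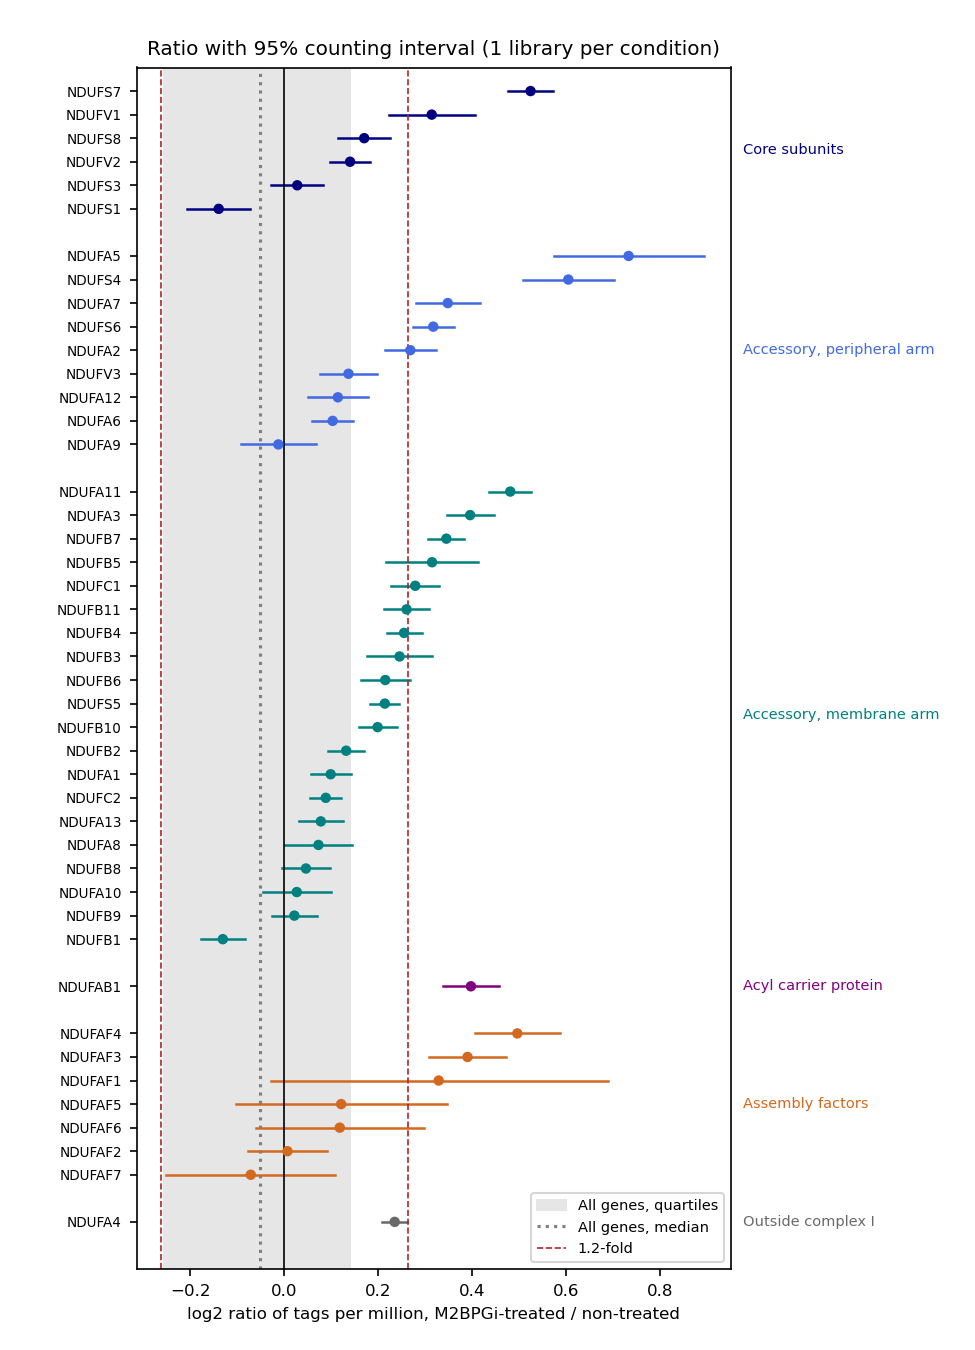
Log2 ratio of CPM, M2BPGi-treated over non-treated, for 44 of the 45 NDUF genes with a mean of at least 1 CPM, without a pseudocount, with 95% counting intervals from 1 library per condition. The band and the dotted line give the quartiles and the median of all genes, which unlike the points were taken with the pseudocount of 1 CPM. The dashed lines mark 1.2-fold, and NDUFS1 and NDUFB1 are the genes whose interval lies below 0.

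Assembly factors build the arms but are absent from the finished enzyme. The 7 listed NDUFAF genes had a median log2 ratio of 0.11, or 0.19 without NDUFAF2, which has a near-identical copy. Above 0 were 6 (beside 42.9% of all genes), at least 1.2-fold higher were 3 (beside 13.0%), and the interval lay above 0 for 2, a share near the 22.8% of all genes. NDUFAF4 stood at 69.5 CPM in the non-treated and 98.1 CPM in the treated library, a log2 ratio of 0.49 (0.41 to 0.59). NDUFAF3 stood at 89.1 and 117 CPM, a log2 ratio of 0.39 (0.31 to 0.47). The proteins of these genes act as a pair in building the ubiquinone module, and both genes were higher. NDUFAF2, the chaperone later replaced by NDUFA12, stood at 95.1 and 95.6 CPM, a log2 ratio of 0.01 (-0.08 to 0.09). NDUFAF5, which modifies NDUFS7, stood at 13.0 and 14.1 CPM, a log2 ratio of 0.11 (-0.10 to 0.35). NDUFAF6, an early-acting factor, stood at 20.3 and 22.1 CPM, a log2 ratio of 0.11 (-0.06 to 0.30). NDUFAF7, a mitochondrial methyltransferase, was at 21.5 and 20.5 CPM, a log2 ratio of -0.07 (-0.25 to 0.11). Differences in these 4 were not detectable at this depth. NDUFAF1, a factor of membrane-arm assembly, was at 4.87 and 6.11 CPM, a log2 ratio of 0.28 whose interval without the pseudocount (-0.03 to 0.69) includes 0. The eighth factor, NDUFAF8, was found under its older symbol C17orf89, outside the rule for members, at 142 and 179 CPM, a log2 ratio of 0.33 (0.27 to 0.40).

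Other NDUF names stand for different products. NDUFA4, first assigned to complex I and now known as a subunit of complex IV, had the highest level of all members, 862 CPM in the non-treated and 1015 CPM in the treated library, a log2 ratio of 0.24 (0.21 to 0.26). Its hypoxia-induced paralogue NDUFA4L2 had the lowest, 0.46 and 1.17 CPM from 11 and 29 tags, a log2 ratio of 1.35 without the pseudocount (0.31 to 2.50) and 0.57 with it. Its mean lay under 1 CPM, so it entered none of the counts or medians. The antisense RNA NDUFA6-AS1 was at 7.53 and 6.44 CPM, a log2 ratio of -0.20 (-0.54 to 0.09). The read-through transcript NDUFC2-KCTD14 carried the same values as NDUFC2, 599.75 and 637.78 CPM, and NDUFA13 the same values as the overlapping gene YJEFN3, so the tags of these pairs were not separated. NDUFB8 had a second identifier at 257 and 265 CPM beside 258 and 267 CPM.

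Several NDUF genes have near-identical processed copies, and a short tag from the 5′ end may be placed at either. A copy was taken as near-identical where at least 100 of the first 500 bases of a transcript matched a gene elsewhere at 95% identity or more. This applied to 7 of the 45 genes (NDUFA4, NDUFA5, NDUFAF2, NDUFB1, NDUFB3, NDUFB4 and NDUFV2). Whether the match covered the 5′ end itself was not checked, so their levels are uncertain to an unknown extent. No copy of NDUFAF2 or NDUFB4 was listed. The copy of NDUFA5 on chromosome 16 was listed at 19.4 CPM in the non-treated and 29.7 CPM in the treated library, close to the gene itself, and gene and copy together at 40.4 and 64.7 CPM, a log2 ratio of 0.66 (0.56 to 0.79). The copy of NDUFB3 on chromosome 14 exceeded its parent, at 140.4 CPM and 204 CPM beside 129 and 152 CPM. Together they gave a log2 ratio of 0.41 (0.36 to 0.45), above the 0.24 of NDUFB3 alone and past 1.2-fold. The pseudogene NDUFB1P1 was at 102 and 83.9 CPM, and NDUFB1 with it at 426 and 379.8 CPM, a log2 ratio of -0.17 (-0.21 to -0.13). In each of these 3 pairs the copy differed in the same direction as the gene, as the plot of genes and copies shows. The listed copies of NDUFV2 and NDUFA4 held few tags, at 1.46 and 1.29 CPM and at 2.29 and 2.53 CPM. The 38 genes without a near-identical copy had a median log2 ratio of 0.19, with 35 above 0 (92.1%, beside 42.9% of all genes) and 15 at least 1.2-fold higher (39.5%, beside 13.0%).

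**Figure D3:**
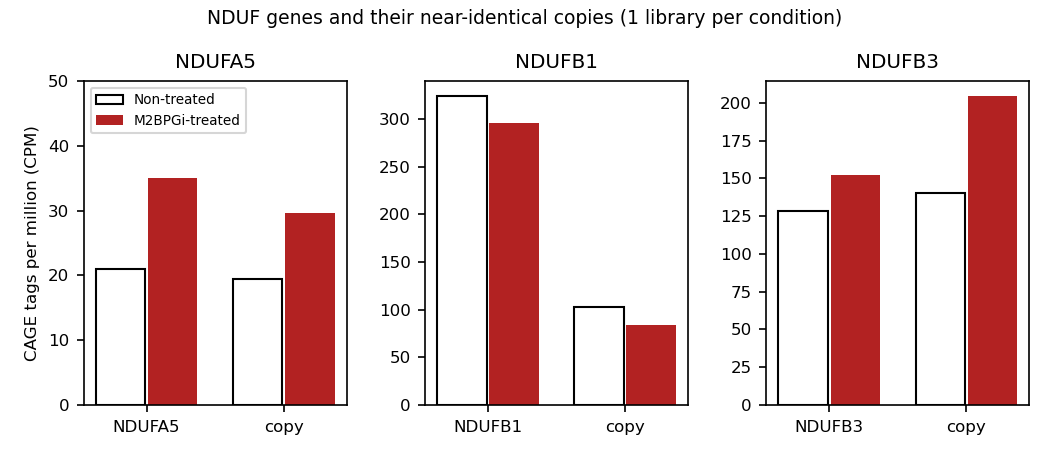
Levels in CPM (CAGE tag counts, bars from 0, a separate scale for each panel) of NDUFA5, NDUFB1 and NDUFB3 and of the near-identical copy of each, in the non-treated library (open bars) and the M2BPGi-treated library (filled bars). The copies of NDUFA5 and NDUFB3 were higher and that of NDUFB1 lower in the treated library, like the genes themselves.

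The NDUF genes were not alone in this difference. Nuclear-encoded subunits of complexes II to V, without NDUFA4, had a median log2 ratio of 0.19, with 12 of 40 at least 1.2-fold higher and 0 lower, close to the 13 of 37 and 0 for complex I subunits and beside 13.0% higher and 24.2% lower of all genes. By complex, the median was 0.00 for the 4 genes of complex II, 0.16 for the 9 of complex III, 0.19 for the 11 of complex IV with NDUFA4 counted, and 0.24 for the 17 of complex V, the ATP synthase. Mitochondrial ribosomal proteins, which make the mitochondrially encoded subunits, had a median of 0.21, with 28 of 76 at least 1.2-fold higher and 1 lower. Cytosolic ribosomal proteins had a median of 0.30, with 48 of 79 higher and 0 lower. The complex I genes thus lay within the range of these abundant housekeeping groups, and none of the 7 mitochondrially encoded complex I subunits was listed.

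NDUF transcripts are also more abundant and shorter than most. Their median length in GENCODE was 796 nt, beside 2311 nt over genes with a mean of at least 10 CPM. Among all 3581 genes at 50 to 1000 CPM, a range chosen after seeing the data, the median log2 ratio was 0.05 and 17.01% were at least 1.2-fold higher, beside 0.21 and 35.0% for the 40 NDUF genes in that range. Among the 2155 of these genes with a length of 400 to 2500 nt, the median was 0.11 and 21.8% were higher, beside 0.21 and 36.8% for 38 NDUF genes. At least 1.2-fold lower were 16.8% of the 3581 genes and 11.8% of the 2155 genes, beside 0 NDUF genes in either range. The distance between the NDUF median and that of other genes was thus smaller beside genes within these ranges than beside all genes. Neither level nor length was matched within the ranges, so the remaining distance is not one between like genes. In the non-treated library the median level was 111 CPM for the 2155 genes and 232 CPM for the 38 NDUF genes. The ratio was above 0 for 56.3% of the 3581 genes, 65.6% of the 2155 genes and 92.5% of the 40 NDUF genes. In the same order, the counting interval lay above 0 for 1605, 1185 and 32 genes and below 0 for 1214, 567 and 2. Without regard to level above 10 CPM, 7514 genes lay in the length range of the NDUF genes, 407 to 4502.5 nt. Their median log2 ratio was -0.01, beside 0.19 for the 44 NDUF genes. This range is wide beside the NDUF median length of 796 nt, so lengths were not matched. Among the 45 NDUF genes the rank correlation of length with log2 ratio was -0.01.

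**Figure D4:**
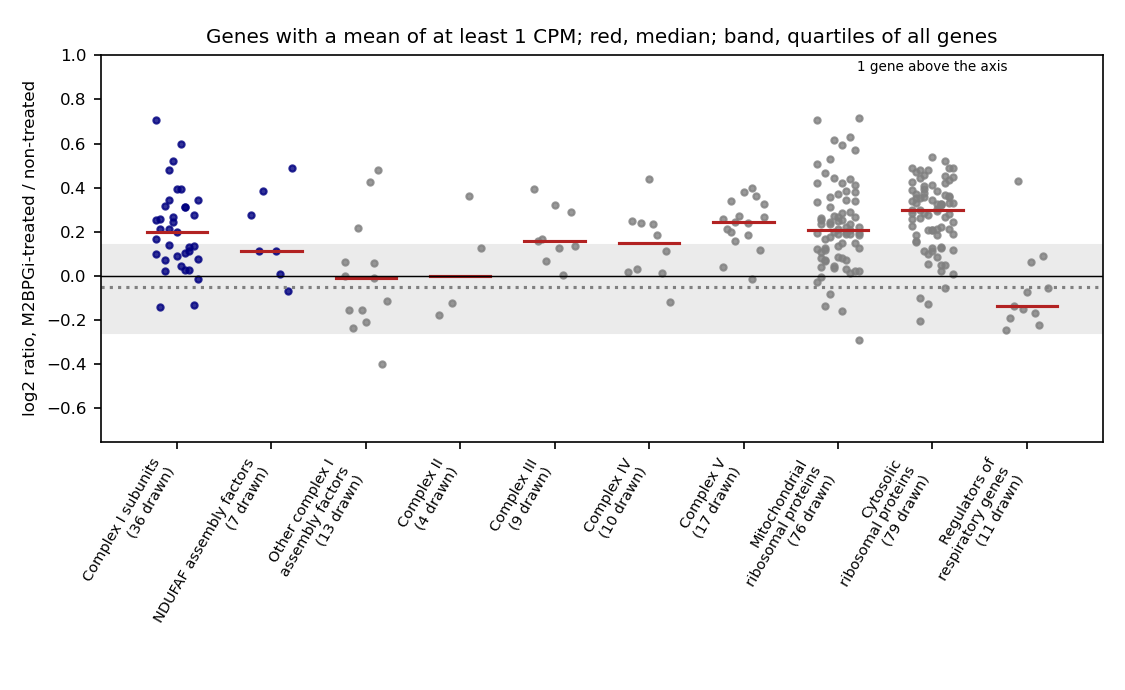
Log2 ratio of CPM plus 1, M2BPGi-treated over non-treated, for 36 of 37 complex I subunits and the NDUFAF assembly factors (dark points) and other gene groups (grey points), for genes with a mean of at least 1 CPM, with medians as red lines. The band and the dotted line give the quartiles and median of all genes, complex IV is drawn without NDUFA4, and 1 cytosolic ribosomal protein gene lies above the axis.

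Assembly factors with other names had ratios on both sides of 0. Of 13 such genes 5 had a ratio above 0 (38.5%, beside 42.9% of all genes), 2 were at least 1.2-fold higher (15.4%, beside 13.0%) and 1 lower (7.69%, beside 24.2%), and the median was -0.01, beside -0.05. C9orf123, now named DMAC1, a factor of the distal membrane arm, was at 36.8 CPM in the non-treated and 51.7 CPM in the treated library, a log2 ratio of 0.48 (0.37 to 0.62). COA1, which also acts in complex IV assembly, was at 31.2 and 42.3 CPM, a log2 ratio of 0.43 (0.30 to 0.57). TMEM126B, a membrane-arm factor, was at 49.0 and 57.1 CPM, a log2 ratio of 0.22 (0.11 to 0.34). All 3 take part in building the membrane arm. FOXRED1, an oxidoreductase-like factor needed late in assembly, was at 33.7 and 25.3 CPM, a log2 ratio of -0.40 (-0.57 to -0.26). TMEM70, which also acts on ATP synthase, was at 84.7 and 76.1 CPM, a log2 ratio of -0.15 (-0.25 to -0.06). TIMMDC1, another membrane-arm factor, was at 145 and 134 CPM, a log2 ratio of -0.12 (-0.18 to -0.05). Factors of the membrane arm were thus found at both ends.

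The nuclear regulators of respiratory genes are described by the same counts. Of 11 with a mean of at least 1 CPM, 3 had a ratio above 0 (27.3%, beside 42.9% of all genes), 1 was at least 1.2-fold higher (9.09%, beside 13.0%) and 0 lower (beside 24.2%), and the median was -0.14, beside -0.05. The counting interval lay below 0 for 5 of the 11 (beside 31.5% of all genes) and above 0 for 1 (beside 22.8%). GABPB1, a subunit of nuclear respiratory factor 2, was at 18.6 CPM in the non-treated and 25.5 CPM in the treated library, a log2 ratio of 0.43 (0.28 to 0.63). Its DNA-binding partner GABPA was at 27.9 and 24.7 CPM, a log2 ratio of -0.17 (-0.34 to -0.02). The subunits of this factor thus differed in opposite directions. The coactivator PPRC1 was at 17.2 and 18.4 CPM, a log2 ratio of 0.09 (-0.10 to 0.29), and the nuclear receptor ESRRA at 31.8 and 33.2 CPM, a log2 ratio of 0.06 (-0.08 to 0.21). The mitochondrial transcription factor TFB2M was at 23.2 and 19.8 CPM, a log2 ratio of -0.22 (-0.41 to -0.06). The related rRNA methyltransferase TFB1M was at 19.5 and 16.9 CPM, a log2 ratio of -0.19 (-0.39 to -0.01). NRF1 itself, below the level set for naming, was at 5.28 and 4.30 CPM, the lowest ratio of the list at -0.24 (-0.68 to 0.09). YY1 was at 48.7 and 46.9 CPM, a log2 ratio of -0.05 (-0.17 to 0.06). Neither difference was detectable at this depth. PPARGC1B, a listed regulator with a mean under 1 CPM, was at 0.50 and 0.56 CPM and entered none of these counts. Transcript levels of regulators do not measure their activity, and any part of theirs in the NDUF levels was not tested.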

How the data were processed

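The deposited table holds CPM, which the authors computed as CAGE counts of each gene per 1000000 tags, for 16424 genes in 2 libraries. The submitters' processing notes name the build hg19 and the aligners BWA and HISAT2, without versions, while the study's methods name a mouse build. The gene identifiers are human. The rule that gave a tag to a gene is not given in the sources used here. Every CPM above 0 was a whole multiple of 1 tag within 0.005 CPM, so tags were read back for counting intervals. Log2 ratios used a pseudocount of 1 CPM and genes with a mean of at least 1 CPM, and bracketed intervals were of the tag ratio without it. Calculations used Python 3.11.15, pandas 2.3.3, scipy 1.17.1 and BLAST+ 2.17.0 and were tested on simulated data. Lengths and copies came from GENCODE release 29, promoters from RefSeq GRCh38.p14.

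Named were the core subunits, of which 1 is not reported singly here or drawn, the 3 highest and 3 lowest ratios in each other class at a mean of at least 10 CPM, genes past 1.5-fold, the highest and lowest CPM, and genes under 1 CPM. Other genes, named for copies, shared values, motifs (NRF1 and YY1 among them) or levels near a limit, were chosen after their values were seen. Members and lists were chosen with earlier results of these data known.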

Additional observations from a re-analysis of the deposited data

How the results depend on the processing

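The 16 NDUF genes at least 1.2-fold higher became 2 at 1.5-fold and 0 at 2-fold, by construction. An exact two-sided binomial test of the tags with Benjamini-Hochberg adjustment over all genes, which compares the libraries and not the conditions, called 32 higher and 2 lower, where 0 were 1.2-fold lower. It called 20.9% of all genes higher and 28.7% lower. Like the counting interval, it calls smaller differences in genes with more tags. Rescaling to a median ratio of 0 moved the log2 ratio of the summed tags from 0.20 to 0.25. Without near-identical copies it was 0.21, the peripheral-arm median went from 0.27 to 0.20 and the assembly factor median from 0.11 to 0.19, as members were removed. Without genes that have a second identifier of the same values, an alternative chosen after seeing the data, the summed ratio was 0.21 and the peripheral-arm median 0.20. Of 135 values of the 45 single NDUF genes under both other pseudocounts and rescaling, 20 moved beyond the counting tolerance, all by rescaling, and 1, NDUFA9, changed sign. No paired analysis was possible because only 1 library was made of either condition. For the same reason none could be left out. TMM normalisation was not run. The depth limits statements on genes of few tags, such as NDUFA4L2 and NDUFAF1.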

Other observations

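The remaining NDUF pseudogenes had few tags. NDUFAF4P1 was at 5.74 CPM in the non-treated and 6.48 CPM in the treated library, NDUFAF4P4 at 1.04 and 1.09 CPM, and NDUFB8P2 had 0 tags in both.

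Within complex II the subunits differed in direction. SDHA, the flavoprotein, was at 272 and 240.6 CPM, a log2 ratio of -0.18 (-0.23 to -0.13), and SDHB, the iron-sulphur subunit, was at 98.5 and 127 CPM, a log2 ratio of 0.36 (0.29 to 0.44). Both were named after their values were seen.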
